A study of Homo sapiens with 32 samples.

Results

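This account follows 48 human genes of DNA replication and of its control by E2F, of 18859 genes to which the transcripts could be assigned. They were taken by name: 16 genes of origin licensing, 7 of helicase activation, 14 of the polymerases, the sliding clamp, its loader and Okazaki fragment maturation, 4 of nucleotide supply, and 7 E2F and cyclin E genes. All 48 passed the filter on low counts. RNA came from 4 cancer cell lines, A375 (melanoma), Cal51 and MDA-MB-231 (breast) and DLD1 (colorectal), each with a wild-type and a G579S version, the latter called resistant in the design text. Cells received 100 nM OTS964, an inhibitor of the transcription and splicing kinase CDK11, or its solvent DMSO for 6 h, and each of the 16 groups has 2 libraries. As background, G579S is known as a substitution in CDK11B that blocks the action of this compound. The labels do not say whether the G579S cells are clones, or whether the 2 libraries of a group are separate cultures, so the p-values speak only to variation among the samples at hand, and that variation may be technical.

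As background, replication starts with licensing. The origin recognition complex (ORC1 to ORC6) sits on DNA, and CDC6 and CDT1 load onto it the ring of MCM2 to MCM7, the replicative helicase, while geminin (GMNN) blocks CDT1 once S phase has begun. The kinase CDC7 with its activator DBF4, together with cyclin-dependent kinases driven by cyclin E, then turns on the helicase, which works with CDC45 and the GINS complex, and polymerases alpha, epsilon and delta copy the strands. E2F1, E2F2 and E2F3 activate the genes of this programme at the start of S phase, and E2F7 and E2F8 repress them later.

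The promoters of 4 genes are shown because they each carry 1 of the E2F-type motifs searched, and their RNA moved in opposite directions with OTS964 in wild-type cells: E2F2 and CDT1 fell, LIG1 and TYMS rose. Each line holds the 250 bases before the gene start on the gene's own strand, from RefSeq's promoter table (GRCh38.p14), with the motif in capitals. They lie at chr1:23531234-23531483 (minus strand, E2F2), chr16:88803539-88803788 (plus, CDT1), chr19:48170345-48170594 (minus, LIG1) and chr18:657403-657652 (plus, TYMS).
E2F2: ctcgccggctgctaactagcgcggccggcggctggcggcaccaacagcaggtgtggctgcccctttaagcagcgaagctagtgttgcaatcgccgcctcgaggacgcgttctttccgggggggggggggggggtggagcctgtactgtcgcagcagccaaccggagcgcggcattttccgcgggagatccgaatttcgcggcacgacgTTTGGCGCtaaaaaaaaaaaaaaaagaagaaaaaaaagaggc
CDT1: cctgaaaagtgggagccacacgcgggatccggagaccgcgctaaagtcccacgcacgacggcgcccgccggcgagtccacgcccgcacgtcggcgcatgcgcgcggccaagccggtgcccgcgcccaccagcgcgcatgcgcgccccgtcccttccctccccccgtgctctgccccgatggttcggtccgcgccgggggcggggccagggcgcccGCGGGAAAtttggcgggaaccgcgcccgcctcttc
LIG1: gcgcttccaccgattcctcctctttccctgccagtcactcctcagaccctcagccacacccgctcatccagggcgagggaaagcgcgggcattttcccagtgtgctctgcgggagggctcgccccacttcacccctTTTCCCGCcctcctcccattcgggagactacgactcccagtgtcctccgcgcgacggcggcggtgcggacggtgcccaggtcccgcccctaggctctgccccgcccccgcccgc
TYMS: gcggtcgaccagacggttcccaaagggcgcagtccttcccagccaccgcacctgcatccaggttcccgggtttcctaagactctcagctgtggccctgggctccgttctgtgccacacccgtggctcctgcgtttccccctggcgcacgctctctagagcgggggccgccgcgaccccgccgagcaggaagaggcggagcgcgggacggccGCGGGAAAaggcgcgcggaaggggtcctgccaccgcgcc

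The motif search used TTTCCCGC, TTTGGCGC, TTTGCCGC and TTTCGCGC on both strands over 300 bases, 250 before and 50 after the start, and matches may overlap. Of the 42 genes with an entry in the table, 21 (50%) held at least 1 match, against 3.33% of all 27305 promoters and 5.17% of the promoters of the genes tested. A match was found for 6 of 12 genes that rose in wild-type cells, 7 of 20 that fell and 8 of 10 that were not called. Genes with a match therefore stood in all 3 classes. E2F1 and MCM2, neither of them called, had 2 matches each, as did MCM3 and MCM7, which rose. MCM6, which also rose, had 4. A match describes these letters only. MCM4, MCM5, GINS4, POLD3, E2F8 and CCNE2 had no entry.

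Libraries held between 16091376 and 29742687 estimated reads. Intervals and tests cover the spread between libraries, and levels are given as CPM, the count scaled by edgeR to a common library size (TMM), unless TPM, which also divides by transcript length, is named. TMM factors averaged 0.768 in wild-type OTS964 libraries and 1.121 in wild-type DMSO libraries. Scaling by library totals lowers the wild-type response of every gene by about 0.54 (log2, the shift of the median of all genes), so a rise given below is a rise relative to the other genes of the library. The libraries labelled DLD1 wild-type went against their label: under DMSO the melanocyte factor SOX10 stood at 716 CPM and the intestinal factor CDX2 at 3.25 CPM there, against 1.29 and 96.3 CPM in DLD1 G579S. Summed CPM over 6 colorectal markers was 33.3 to 49.9 in these DMSO libraries and 1335 to 1338 in DLD1 G579S, and over 6 melanocyte markers 707 to 754 and 26.6 to 28.7, of which SOX10 made up nearly all in the former. The other melanocyte markers were not higher there: MITF stood at 13.8 against 24.5 CPM, PMEL at 0.536 against 1.78, and MLANA, TYR and DCT at or near 0 in both. The mesenchymal marker VIM stood at 3525 against 8.06 CPM. A375 wild-type DMSO libraries lay near those labelled DLD1 wild-type, with SOX10 at 592, MITF at 13.7, PMEL at 0.528 and VIM at 3346 CPM. The colorectal markers CDX2, EPCAM and CDH1 stood at 0, 0.159 and 0 CPM in A375, against 3.25, 21.8 and 16.2. Whether the libraries labelled DLD1 wild-type hold A375 cells was not tested. They are kept under their label here, and some totals across lines are also given without them. Libraries of the pairs Cal51 G579S DMSO and MDA-MB-231 wild-type OTS964 differed most from each other, with a chi-square per degree of freedom of 87.0 and 85.7, against 5.68 to 47.9 in the other 14 groups.

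Before treatment the wild-type levels per transcript length spanned a wide range. TYMS, the thymidylate synthase, was highest at 390 ± 42.8 TPM (SD, n = 8 libraries; range 340 to 455), followed by the sliding clamp PCNA at 364 ± 64.7 TPM, and these neighbours overlapped. TK1, RRM2 and MCM7 followed at 256 ± 54, 240 ± 33.2 and 233 ± 11.3 TPM, also within each other's ranges. At the low end were CCNE1 at 10.9 ± 3.8, E2F2 at 7.84 ± 4.94, ORC4 at 5.02 ± 1.16, POLA1 at 2.88 ± 2.15 and DBF4 at 1.18 ± 0.454 TPM. POLA1, the catalytic subunit of polymerase alpha, was listed at 0 in some libraries and not in their partners, with a highest wild-type value of 20.6 CPM, and its fold change of -1.06 ± 1.27 (SE) is not interpreted.

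In cells labelled wild-type, OTS964 moved genes of this set in both directions, as it did over all genes tested. Across the 4 lines 38 of 48 genes passed edgeR's quasi-likelihood F test at a Benjamini-Hochberg adjusted p under 0.05, the meaning of "called" below, 15 higher and 23 lower, where 58.9% of all genes tested were called, 27.1% higher and 31.8% lower. RNA was taken in bulk, so fewer cells in a given phase of the cycle and less RNA per cell cannot be told apart. The share called higher was near that of all genes, while the share called lower was above it. The median log2 fold change was -0.54 over the 48 genes and -0.11 over all genes. Scaled by library totals, 2 genes (TK1 and TYMS) were called higher and 29 lower, and the 29 held all 23 genes that were lower under TMM scaling. Counts of calls with library totals, here and below, are given without the share of all genes at that scaling. They cannot show whether the 48 genes differ from the rest. The CPM ranges of the 8 OTS964 and the 8 DMSO libraries did not overlap for 16 genes that were lower (10.1% of all genes) and 3 that were higher (5.09%). For those 3 higher genes, MCM7, TYMS and TK1, the TPM ranges overlapped. Leaving out the 4 libraries labelled DLD1 wild-type gave 36 calls.

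**Figure D1:**
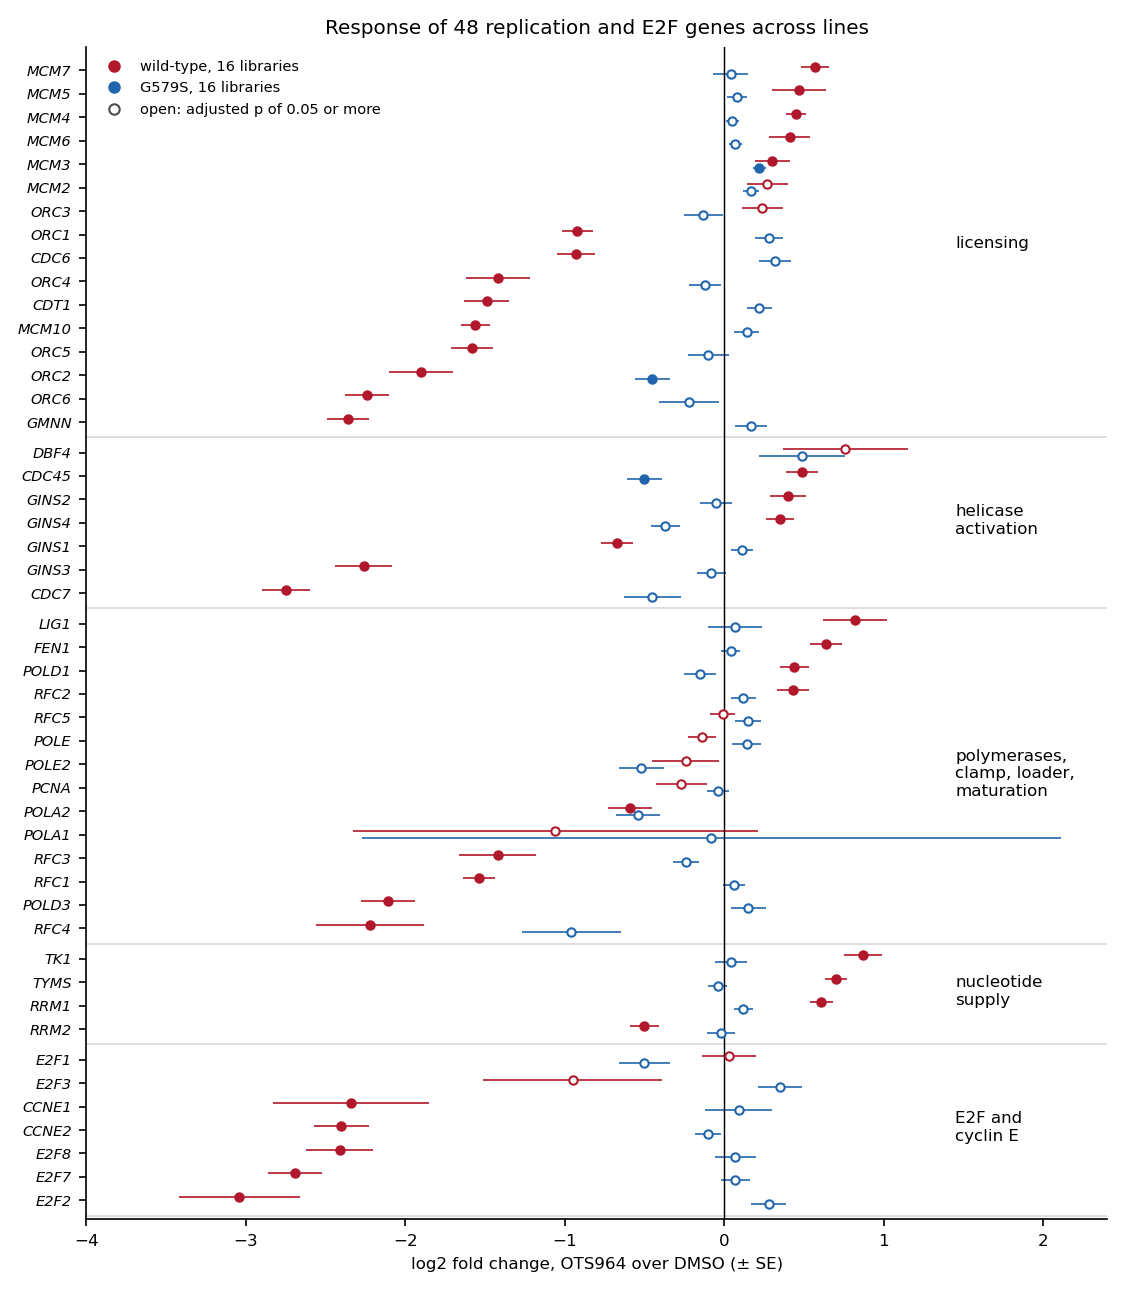
Log2 fold change of OTS964 over DMSO for the 48 genes, grouped by role, in wild-type (red) and G579S (blue) cells across 4 lines; bars are standard errors and open points did not pass an adjusted p of 0.05. The red points spread from -3.04 (E2F2) to 0.87 (TK1) and the blue points from -0.96 (RFC4) to 0.49 (DBF4), POLA1 aside; with scaling by library totals each red point moves left by about 0.54, which puts most of the rises near or below 0.

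Among the 16 licensing genes 5 were higher and 9 lower. ORC subunits fell together, with 5 of 6 called. ORC6 lay between 26.1 and 79.7 CPM (median 56.1) in the 8 DMSO libraries and between 4.01 and 20.2 (median 10.8) in the 8 OTS964 libraries, a log2 fold change of -2.24 ± 0.14 (SE) with an adjusted p of 7.9e-09. No OTS964 library reached a DMSO library. ORC2 changed by -1.90, ORC5 by -1.58, ORC4 by -1.42 and ORC1, the subunit that varies through the cell cycle, by -0.92. ORC3 was not called, at 0.24 ± 0.13 (adjusted p = 0.13), and at -0.30 with library totals.

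The loading factors fell as well. CDT1 went from 66.2 to 112 CPM (median 105) under DMSO to 24.0 to 44.3 CPM (median 34.9) with OTS964, a change of -1.49 ± 0.14 with an adjusted p of 3.4e-07. CDC6, at a median of 117 CPM under DMSO and 68.9 with OTS964, fell by 0.93. Both sets of libraries were separate. Geminin, the inhibitor of CDT1, had 1 of the largest falls: 42.8 to 69.3 CPM (median 48.4) became 6.14 to 14.0 CPM (median 10.7), a change of -2.36 ± 0.13 with an adjusted p of 3.4e-09. The loader CDT1 and its inhibitor thus both fell.

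The helicase ring itself did not follow them. MCM3, MCM4, MCM5, MCM6 and MCM7 were higher by 0.30 to 0.57 and MCM2 was not called at 0.27 ± 0.13 (adjusted p = 0.075), whereas with library totals MCM2 to MCM6 lay between -0.28 and -0.09, MCM7 at 0.02, and none of them passed. The MCM3 call was lost in 6 of 16 fits that left out 1 wild-type library (3 of the libraries labelled DLD1 and 3 of MDA-MB-231; values from 0.22 to 0.34), and the MCM5 call in 3 (the first OTS964 library labelled DLD1 and each MDA-MB-231 DMSO library; values from 0.34 to 0.55). MCM7 lay between 357 and 422 CPM (median 391) under DMSO and between 430 and 778 (median 568) with OTS964. In TPM its ranges overlapped, at 215 to 254 under DMSO and 151 to 273 with OTS964. By CPM every treated MCM7 library was above every control, and the change was 0.57 ± 0.09 (adjusted p = 7e-05). MCM10, which joins the helicase when it is switched on, moved the other way: 70.0 to 104 CPM (median 75.6) became 21.7 to 33.1 CPM (median 29.2), a change of -1.56 ± 0.09 with an adjusted p of 5.1e-09.

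Of the 7 helicase activation genes 3 were higher and 3 lower. CDC7, the kinase that phosphorylates the MCM ring, lay between 17.0 and 64.8 CPM (median 30.1) under DMSO and between 2.43 and 11.3 (median 3.74) with OTS964, a change of -2.75 ± 0.15 with an adjusted p of 3.3e-09. All treated libraries were below all controls. Its activator DBF4 was scarce, at 0.802 to 3.98 CPM under DMSO and 1.44 to 7.73 CPM with OTS964, and was not called across lines (0.76 ± 0.39, adjusted p = 0.11). Its response differed between lines (adjusted p = 0.021 by edgeR's F test). DBF4 was called higher in Cal51 (2.29), but not in A375 (0.60), libraries labelled DLD1 (0.93) or MDA-MB-231 (-0.78). CDC45 was higher by 0.49 ± 0.10 but at -0.06 with library totals. The 4 GINS subunits, which form a single complex, split: GINS3 fell by 2.26 and GINS1 by 0.67, while GINS2 and GINS4 were higher by 0.40 and 0.35, and at -0.15 and -0.19 with library totals.

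Of the 14 genes of polymerases, clamp, loader and maturation 4 were higher and 5 lower. Within polymerase delta the catalytic subunit POLD1 was higher by 0.44 ± 0.09 (at -0.11 with library totals), and the accessory subunit POLD3 fell by 2.11, from 33.8 to 52.0 CPM (median 44.4) to 5.67 to 18.7 CPM (median 10.3). POLD3 ranges did not overlap. In replication factor C, the clamp loader, RFC4 fell by 2.22, RFC1, its largest subunit, by 1.54 and RFC3 by 1.42, RFC5 was not called (-0.01 ± 0.08; -0.56 and called lower with library totals), and RFC2 was higher by 0.43 (at -0.12 with library totals). The primase partner POLA2 fell by 0.59. PCNA, POLE, the leading-strand polymerase, and its subunit POLE2 were not called, at -0.27, -0.14 and -0.24, but all 3 were called lower with library totals, at -0.81, -0.69 and -0.79.

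The Okazaki fragment enzymes were among the largest rises. FEN1, the flap nuclease, lay between 164 and 279 CPM (median 221) under DMSO and between 198 and 526 (median 360) with OTS964, a change of 0.64 ± 0.10 with an adjusted p of 4.3e-05. LIG1, the ligase that seals the fragments, lay between 26.9 and 46.8 CPM (median 34.9) and between 29.1 and 133 (median 59.4), a change of 0.82 ± 0.20 with an adjusted p of 0.0023. For both genes the groups overlapped, and with library totals their changes were 0.09 and 0.26 and did not pass.

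Nucleotide supply showed 3 rises and 1 fall. TK1, the thymidine kinase of the salvage pathway, went from 175 to 263 CPM (median 192) to 266 to 552 CPM (median 374), a change of 0.87 ± 0.12 with an adjusted p of 1.4e-05. TYMS went from 256 to 393 CPM (median 314) to 401 to 674 CPM (median 509), a change of 0.70 ± 0.07 with an adjusted p of 5.3e-07. In CPM every treated library lay above every control for both, and both also passed with library totals (0.32 and 0.15). Within single lines that scaling called them higher in MDA-MB-231 only. In TPM the groups overlapped, at 200 to 350 under DMSO and 192 to 398 with OTS964 for TK1. For TYMS the TPM ranges were 340 to 455 and 294 to 432. The subunits of ribonucleotide reductase parted: RRM1, the large subunit, went from 170 to 315 CPM (median 199) to 233 to 505 CPM (median 325), a rise of 0.61 ± 0.07 (0.06 with library totals), and RRM2, the small subunit made in S phase, fell by 0.50 ± 0.09 (adjusted p = 0.00037).

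Of the 7 E2F and cyclin E genes 5 were called, all lower, with E2F2 at the head of the 48 genes, followed by CDC7 and then E2F7. E2F2 went from 9.16 to 40.7 CPM (median 16.7) to 0.332 to 8.07 CPM (median 2.53), a change of -3.04 ± 0.38 with an adjusted p of 6.3e-06. The repressors followed: E2F7 went from 52.3 to 162 CPM (median 71.2) to 5.38 to 48.7 CPM (median 8.97), -2.69 ± 0.17 (adjusted p = 8.9e-09), and E2F8 from 8.68 to 53.4 CPM (median 24.8) to 0.563 to 12.6 CPM (median 5.38), -2.41 ± 0.21 (adjusted p = 1.9e-07). Only E2F8 of these 3 had overlapping groups. CCNE2 went from 27.6 to 51.8 CPM (median 30.1) to 4.22 to 10.6 CPM (median 6.25), -2.40 ± 0.17 (adjusted p = 2.7e-08), and CCNE1 fell by 2.34. E2F1, at 0.03 ± 0.17, and E2F3, at -0.95 ± 0.56, were not called under TMM scaling, and both were called lower with library totals, at -0.52 and -1.49.

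**Figure D2:**
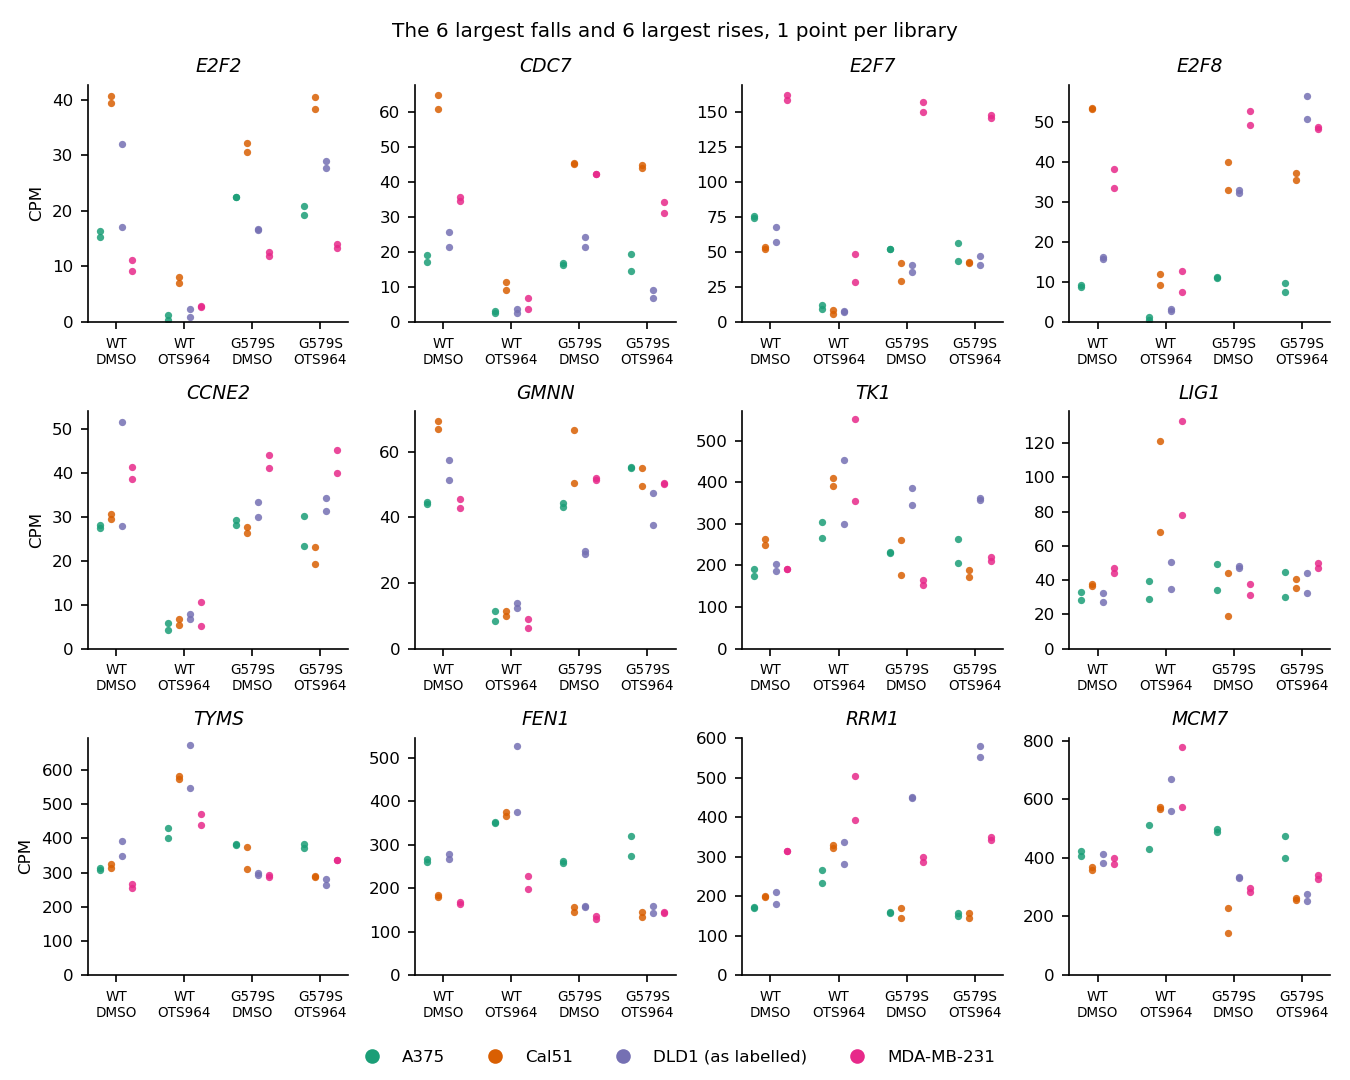
CPM in each of the 32 libraries for the 6 genes with the largest falls and the 6 with the largest rises, by genotype and treatment (x axis), coloured by labelled line, each panel with its own linear axis from 0. Wild-type OTS964 libraries sit low for E2F2 (0.332 to 8.07) and GMNN (6.14 to 14.0) and high for TYMS (401 to 674), while the G579S groups overlap; the rises of LIG1, FEN1, RRM1 and MCM7 did not pass with scaling by library totals.

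Ratios of 2 genes in the same library do not depend on how libraries are scaled, and they showed the same divisions within complexes. ORC6 per ORC3 had a median of 2.65 (0.961 to 5.35) in wild-type DMSO libraries and 0.417 (0.192 to 1.1) in wild-type OTS964 libraries. MCM10 per MCM7 went from 0.199 (0.172 to 0.291) to 0.0515 (0.0279 to 0.0607), GINS3 per GINS2 from 0.418 (0.243 to 0.689) to 0.0891 (0.0249 to 0.117), and POLD3 per POLD1 from 0.293 (0.22 to 0.549) to 0.0509 (0.0324 to 0.14). RFC4 per RFC2 went from 0.533 (0.403 to 0.956) to 0.0749 (0.0427 to 0.296). Ranges overlapped only for ORC6 per ORC3 among these 5 ratios. RRM2 per RRM1 had a median of 2.22 (1.24 to 2.99) and then 1.06 (0.55 to 1.49). In G579S cells the medians under DMSO and OTS964 were 0.244 and 0.231 for MCM10 per MCM7, 0.441 and 0.421 for GINS3 per GINS2, 0.287 and 0.364 for POLD3 per POLD1 and 0.721 and 0.327 for RFC4 per RFC2. These pairs were chosen after the fold changes were seen and are given as a description.

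Of the other 56 genes of replication and of the RB and E2F pathway, 18 were called higher and 27 lower, with a median of -0.29. Over all genes tested 27.1% were called higher and 31.8% lower. LIN9, a subunit of the DREAM and MuvB complexes, fell most, from a median of 14.5 to 0.167 CPM (-4.85 ± 0.85), followed by E2F5 (-2.77 ± 0.28) and LIN37 (-2.75 ± 0.33), a further subunit of DREAM. The largest rises were those of CDKN1B, the inhibitor p27 of cyclin E kinase, from a median of 48.4 to 221 CPM (2.21 ± 0.12), POLE4 (1.12 ± 0.10) and RPA3 (1.08 ± 0.09), small subunits of polymerase epsilon and of the single-strand binding protein RPA.

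Lines shared most of the falls. In A375 30 of 48 genes were called, 5 higher and 25 lower, where 45.8% of all genes were (20.8% higher, 25.0% lower). In Cal51 36 were called, 10 higher and 26 lower, where 52.8% of all genes were (24.9% higher, 27.8% lower). In libraries labelled DLD1 wild-type 34 were called, 11 higher and 23 lower, where 50.0% of all genes were (22.2% higher, 27.7% lower). In MDA-MB-231 40 were called, 18 higher and 22 lower, where 46.5% of all genes were (24.1% higher, 22.4% lower). Called lower in every line were 21 genes, where 13.3% of all genes were: ORC1, ORC2, ORC4, ORC5, ORC6, CDC6, CDT1, GMNN, MCM10, GINS1, GINS3, CDC7, POLD3, RFC1, RFC4, RRM2, E2F2, E2F7, E2F8, CCNE1 and CCNE2. All 21 were also called lower in every line with library totals. Several markers of the libraries labelled DLD1 wild-type lay near those of A375 wild-type, so they may not count as a separate line. A count without them is not given. Leaving out 1 library cost a line for CCNE1 (in A375, Cal51 and MDA-MB-231), GINS1 (in libraries labelled DLD1), RFC4 (in MDA-MB-231) and RRM2 (in A375 and MDA-MB-231). FEN1, MCM4, RRM1, TK1 and TYMS were called higher in every line under TMM scaling (13.6% of all genes), and 0 of these 5 were with library totals, where MCM4 was called lower in Cal51 (-0.22). Leaving out 1 library cost a line for FEN1 (in MDA-MB-231), TK1 (in A375 and Cal51) and MCM4, whose A375 call passed in 1 of 4 such fits. CDC7 ranged only from -2.94 to -2.62 between lines and CCNE2 from -2.48 to -2.31.

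**Figure D3:**
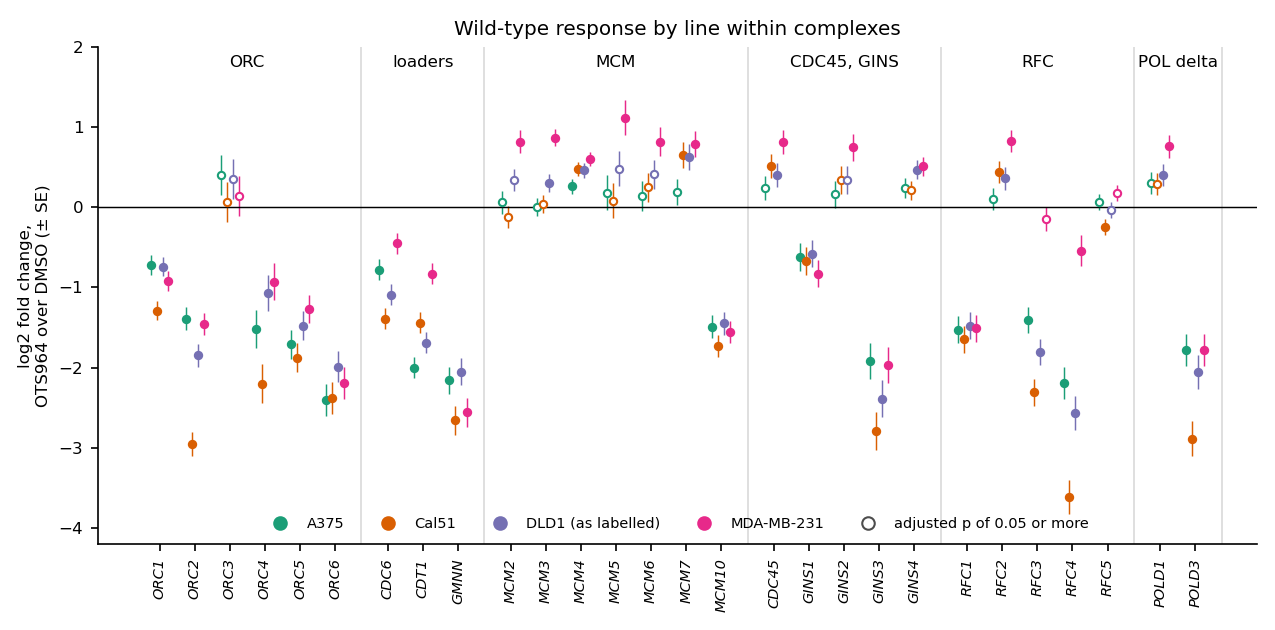
Log2 fold change of OTS964 over DMSO in each wild-type line for the subunits of 6 complexes or groups, with standard errors; open points did not pass. ORC subunits other than ORC3 lie below 0 in all 4 lines, RFC4 ranges from -3.62 in Cal51 to -0.54 in MDA-MB-231, and MCM2 to MCM7 are highest in MDA-MB-231, where with scaling by library totals 3 of the 6 passed, whereas that scaling calls 5 of the 6 lower in Cal51 and 2 in A375.

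The response differed between lines for 22 genes, where 26.7% of all genes did. Clamp loader subunits led: RFC4 changed by -2.19 in A375, -3.62 in Cal51 and -2.57 in libraries labelled DLD1 but -0.54 in MDA-MB-231 (adjusted p of the difference = 1.1e-06), where the levels were 55.0 and 53.5 CPM under DMSO and 34.3 and 40.2 with OTS964. RFC3 changed by -1.41, -2.31 and -1.81 and, in MDA-MB-231, by -0.15 (adjusted p of the difference = 3.6e-06), a value that was not called, turned to 0.15 without the first OTS964 library, and was -0.64 and called lower with library totals. The MDA-MB-231 call for RFC4 passed in 1 of 4 fits that left out 1 library and was -0.43 without the first OTS964 library and -1.05 with library totals.

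MDA-MB-231 also had all 6 genes MCM2 to MCM7 called higher, by 0.60 to 1.12, of which 3 passed with library totals, and all 6 passed without its first OTS964 library. In the other lines the scaling turned the ring genes the other way. With library totals 5 of the 6 were called lower in Cal51, MCM2 to MCM6, by -0.83 to -0.22, and in A375 MCM2 (-0.38) and MCM3 (-0.44) were, while libraries labelled DLD1 wild-type had 0 of 6 called and under TMM scaling no line had any of the 6 called lower. MCM5 in MDA-MB-231 stood at 117 and 118 CPM under DMSO and at 318 and 193 with OTS964. In that line E2F1 went from 146 and 147 CPM to 296 and 245 (0.89, adjusted p = 0.00058 by edgeR's F test). With library totals its change was 0.37 and was not called. E2F3 in MDA-MB-231 went from 81.8 and 77.2 to 1.37 and 10.2 (-3.81, adjusted p = 3.7e-05 by the same test). It was at -2.96 without the first OTS964 library. In A375 E2F3 stood at 28.4 and 31.9 CPM and then at 33.5 and 40.8, and the difference between lines had an adjusted p of 0.0031. PCNA was called in opposite directions: 178 and 174 CPM became 229 and 277 in MDA-MB-231 (0.52, but 0.02 with library totals), whereas 237 and 239 became 129 and 132 in Cal51 (-0.87) and 239 and 237 became 174 and 192 in A375 (-0.38, lost when any 1 of its 4 libraries was left out). Its difference between lines had an adjusted p of 0.00023.

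In G579S cells few of these genes were called. Across lines 3 of 48 were called, where 2.43% of all genes were (1.26% higher, 1.17% lower). By edgeR's F test 16 of the 48 had an unadjusted p under 0.05. Counts at an unadjusted p or by DESeq2, here and below, are given without the matching share of all genes. They cannot show an excess over it. No gene of the 48 had DMSO and OTS964 libraries that did not overlap (0.0629% of all genes lower, 0.0140% higher). MCM3 was higher by 0.22 ± 0.04 (adjusted p = 0.017), from 234 and 243 to 288 and 263 CPM in A375, from 239 and 224 to 256 and 254 in Cal51, from 297 and 300 to 372 and 358 in DLD1 and from 400 and 403 to 474 and 477 in MDA-MB-231. ORC2 fell by 0.45 ± 0.11 (adjusted p = 0.044), most in DLD1, from 39.6 and 40.5 to 21.3 and 19.2 CPM, and least in Cal51, from 41.4 and 37.2 to 37.7 and 35.6. CDC45 fell by 0.50 ± 0.11 (adjusted p = 0.036), from 44.9 and 46.3 to 23.6 and 21.4 CPM in DLD1, while MDA-MB-231 had 40.8 and 42.4 and then 38.7 and 44.7. With library totals MCM3 did not pass (0.10), while ORC2 (-0.57) and CDC45 (-0.61) did. When 1 of the 16 G579S libraries was left out the ORC2 call was lost in 13 fits, with values from -0.50 to -0.38 over all 16, and the CDC45 call in 10, with values from -0.56 to -0.43. None of the 3 calls held without the 4 DLD1 libraries, and DESeq2 called 13 genes across lines.

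Tested directly, the response differed between genotypes for 34 of 48 genes, 12 higher and 22 lower in wild-type cells, where 50.1% of all genes differed (24.3% higher, 25.8% lower). The differences were largest for E2F2 (-3.29 ± 0.37), E2F7 (-2.76 ± 0.19), GMNN (-2.52 ± 0.16), E2F8 (-2.47 ± 0.24) and CCNE1 (-2.41 ± 0.50). In G579S cells E2F2 had a median of 19.5 CPM (11.9 to 32.2) under DMSO and 24.3 (13.3 to 40.5) with OTS964, and GMNN 47.5 (28.8 to 66.7) and 50.3 (37.7 to 55.3). The G579S groups overlapped for both genes. On the higher side stood CDC45 (0.99 ± 0.16), TK1 (0.83 ± 0.16), LIG1 (0.75 ± 0.27), TYMS (0.74 ± 0.09) and GINS4 (0.72 ± 0.13), and with library totals 3 genes were called higher. POLA2, lower by 0.59 in wild-type cells, did not differ between genotypes by this test (-0.05 ± 0.20, adjusted p = 0.88), which averages over unlike lines. Its responses in wild-type and G579S cells were -1.26 and -0.19 in Cal51 but -0.56 and -1.33 in libraries labelled DLD1. In A375 they were -0.41 and -0.32, and in MDA-MB-231 -0.12 and -0.34. The test therefore does not show that the POLA2 fall was alike in both genotypes. Without all 8 DLD1 libraries 31 genes differed.

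DLD1 G579S stood apart from the other resistant lines. There OTS964 changed 21 genes, 9 higher and 12 lower, where 23.5% of all genes were called (10.8% higher, 12.7% lower). In A375 G579S 0 genes passed with edgeR (0.656% of all genes, 0.384% higher and 0.272% lower; 10 of 48 at an unadjusted p under 0.05, 4 with DESeq2), in MDA-MB-231 G579S 0 (0.307%, 0.223% higher and 0.0838% lower; 6 unadjusted, 2 with DESeq2) and in Cal51 G579S only GINS4 (-0.61, adjusted p = 0.033; 0.391%, 0.140% higher and 0.251% lower). The response in DLD1 G579S differed from the mean of the other 3 lines for 14 genes, 5 higher and 9 lower, where 12.0% of all genes did (4.66% higher, 7.38% lower), a comparison added after these counts were seen.

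Some of these changes had the direction of the wild-type response and some the opposite one. RFC4 fell in both, from 49.3 and 46.8 CPM to 6.61 and 6.20 in DLD1 G579S (-2.90 ± 0.21, adjusted p = 1.1e-08). CDC7 went from 21.4 and 24.2 CPM to 6.83 and 9.02 (-1.53) and ORC6 from 65.3 and 69.3 to 28.5 and 26.6 (-1.29). E2F1, which across wild-type lines was called lower only with library totals and which in MDA-MB-231 wild-type was called higher, fell from 65.5 and 66.8 to 24.7 and 24.6 CPM (-1.43, adjusted p = 2.9e-05). In contrast CDC6 went up from 138 and 142 to 266 and 242 CPM (0.86), ORC1 from 61.2 and 66.7 to 108 and 104 (0.73), RRM2 from 603 and 600 to 865 and 825 (0.49) and the repressor E2F8 from 32.9 and 32.1 to 50.6 and 56.5 (0.72), while the first 3 of these remained called with library totals (0.61, 0.48 and 0.24) and E2F8 did not (0.47). CDC6, ORC1, RRM2 and E2F8 were among the 21 genes that fell in every wild-type line.

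**Figure D4:**
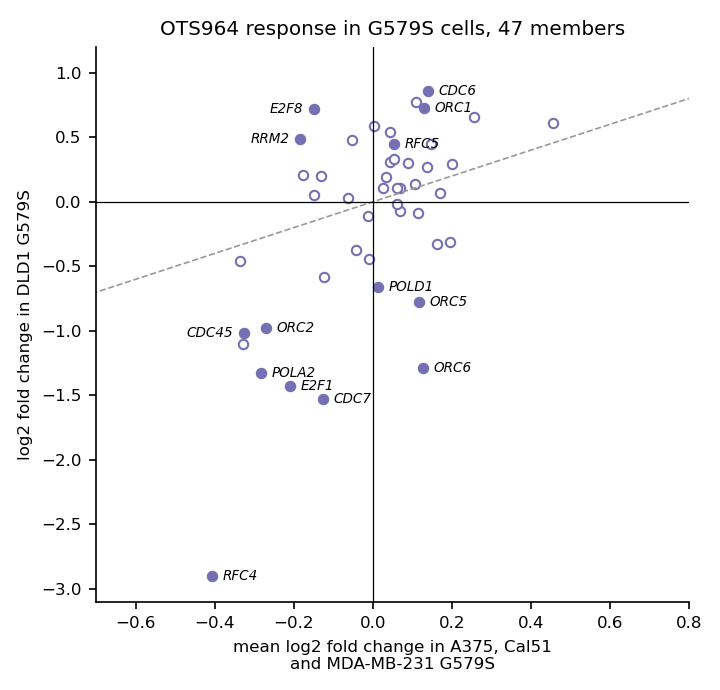
Log2 fold change of OTS964 over DMSO in DLD1 G579S (y axis) against the mean of the other 3 G579S lines (x axis) for 47 genes (POLA1 is left out); the dashed line marks equal changes and filled points differed from that mean. RFC4 at -2.90 lies lowest, and CDC6 at 0.86 and ORC1 at 0.73 lie above the line.

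Without drug, the number of these genes that differed between genotypes varied with the line. In A375 G579S 8 genes differed from wild-type, 2 higher and 6 lower, where 9.77% of all genes did (4.39% higher, 5.38% lower), but only 1 to 3 did when any 1 of the 4 libraries was left out. RRM2 was lowest, at 266 and 272 CPM against 444 and 441 (-0.72 ± 0.08), followed by GINS1 (-0.70 ± 0.17) and POLA2 (-0.53 ± 0.15), while MCM3 was higher at 234 and 243 against 174 and 177 (0.44 ± 0.11), and TYMS by 0.30 ± 0.09. In MDA-MB-231 G579S MCM3 alone differed, at 400 and 403 CPM against 307 and 315 (0.37, adjusted p = 0.042; 7.30% of all genes, 2.74% higher and 4.56% lower), a call lost when any 1 of the 4 libraries was left out.

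In Cal51 G579S 15 genes were lower than in wild-type and none higher, where 17.0% of all genes differed, 10.3% higher and 6.73% lower. POLD3 stood at 19.6 and 23.7 CPM against 43.5 and 45.2 (-1.04 ± 0.19), MCM7 at 230 and 145 against 357 and 368 (-0.95 ± 0.16) and POLE2 at 7.19 and 7.71 against 12.0 and 14.2 (-0.81 ± 0.23). The 2 Cal51 G579S libraries differed from each other for MCM7. The count was 11 without the first of them, 8 without the second, and 7 and 8 without the first and second wild-type library. Genotypes were not compared in DLD1, since the libraries labelled wild-type went against that label.

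The mix of transcripts was called as changed for 2 of 29 genes with several tested transcripts. That is near the share over all 6403 genes tested, of which 5.31% were called. For POLD3 the transcript NM_006591.2 of 3824 bases had a median of 18.5 TPM (11.4 to 22.2) in wild-type DMSO libraries and of 0 (0 to 3.19) with OTS964, whereas XM_005273716.1, of 1840 bases, had 7.14 (2.27 to 7.91) and 5.39 (2.21 to 6.41). By edgeR's transcript usage test the adjusted Simes p was 0.011. For ORC5 the transcript NM_002553.3 of 1958 bases went from 27.7 (23.6 to 32.4) to 3.23 TPM (0.657 to 8.28), and NM_181747.3 of 1317 bases from 0.668 (0.25 to 1.66) to 3.17 (0.671 to 7.06). The adjusted Simes p from edgeR was 0.025. In both genes the shorter transcript gained share. RRM2 and GINS3 did not pass, at adjusted Simes p of 0.24 and 0.26. Neither POLD3 (0.2) nor ORC5 (0.07) passed without the 4 libraries labelled DLD1 wild-type. The ORC5 call was also not kept in every fit that left out 1 wild-type library. Transcript levels are estimates that divide shared reads, and a value listed at 0 can be a failed estimate.

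**Figure D5:**
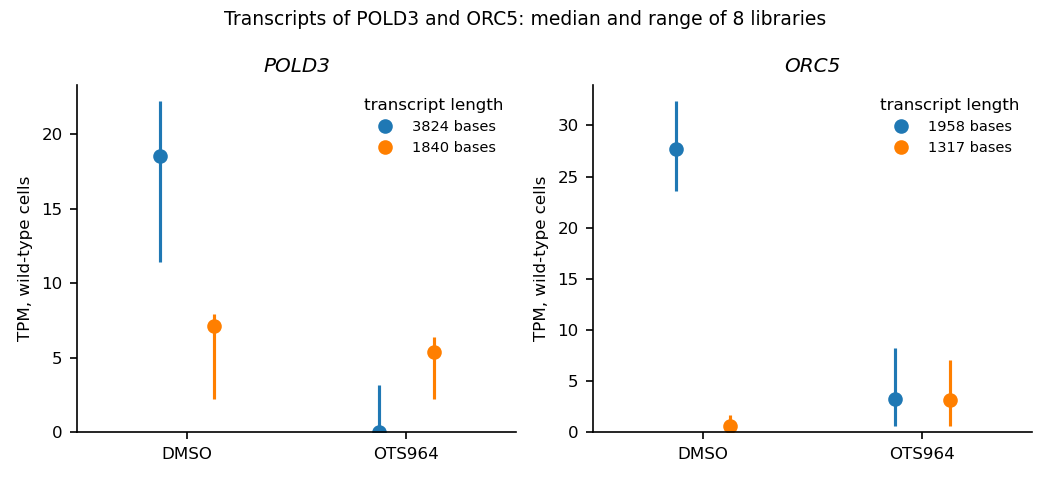
TPM of 2 transcripts each of POLD3 and ORC5 in wild-type cells, as the median (point) and range (bar) of 8 DMSO and 8 OTS964 libraries, coloured by transcript length. The longer POLD3 transcript drops from a median of 18.5 to 0 and the longer ORC5 transcript from 27.7 to 3.23, and the shorter POLD3 transcript stays at 7.14 and 5.39.

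Genes that rose and fell differed in their untreated level more than in length. The median wild-type DMSO level was 122 TPM (19 to 390) for the 15 genes that rose, 31.9 TPM (5.02 to 240) for the 23 that fell and 23.7 TPM for the 10 not called. Spearman's rho between the log2 fold change and the untreated TPM was 0.50 over the 48 genes, and it was -0.11 with the length of the most abundant transcript, whose median was 3010 bases for genes that rose and 3135 for those that fell. These are descriptions across genes that share libraries.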

How the data were processed

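RNA-seq of 32 libraries was analysed. Per the file headers, the authors deposited for each library transcript lengths, effective lengths, TPM values and numbers of reads, here called estimated counts, for 87398 identifiers. The deposited TPM values were scaled to transcript length and library total. The quantification tool and its version are not given in the sources used here. Because the builds listed per the submitters' processing notes are mouse ones while the identifiers are human RefSeq entries, no coordinates were taken for the transcripts. Reads shared between transcripts are split by estimate in such tables.

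Versionless identifiers were matched to symbols through RefSeq and GENCODE tables (48.7% of identifiers, on average 87.6% of reads, the remaining 12.4% not used), and the estimated counts of a gene's transcripts were added and rounded, for 18859 genes. The tests used edgeR 4.0.16 under R 4.3.3 (quasi-likelihood F test, TMM scaling, edgeR's filter on low counts, which left 14319 genes), with Benjamini-Hochberg adjustment over all of them and a threshold of 0.05. Standard errors are the log2 fold change divided by the square root of F. Comparisons across lines had the line as a block. For single lines, all 16 groups entered the same model and shared its spread. Transcript usage was tested with diffSpliceDGE and the Simes method. The tests were checked on simulated data with few changed genes, drawn up or down alike. That check does not cover the scaling of libraries when many genes change. Same-numbered libraries did not deviate together (correlations from -0.044 to 0.068 over 24 pairs of groups), so no pairing was assumed. Alternatives were library totals, DESeq2 1.42.0 and its size factors, no filter, length-scaled TPM, a replicate block and leaving out libraries.

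The 48 genes, the 56 other pathway genes and the tests were chosen with earlier results of these data known. Values are named for the 6 largest rises and falls in wild-type cells, for genes called in G579S cells, for the highest and lowest untreated levels, for the 3 largest changes each way between genotypes and among the other pathway genes, and for the 4 smallest Simes p-values. Other genes named with values were chosen after those were seen.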

Additional observations from a re-analysis of the deposited data

Results flagged for a closer look

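The response to OTS964 differed between wild-type and G579S cells for 34 of the 48 genes, by a test of the difference across lines. The wild-type response differed between the 4 labelled lines for 22 genes, and PCNA was called higher in MDA-MB-231 and lower in A375 and Cal51 (adjusted p of the difference = 0.00023). The response in DLD1 G579S differed from the mean of the other 3 G579S lines for 14 genes. Each of these tests is an edgeR quasi-likelihood F test with Benjamini-Hochberg adjustment over all genes, and groups of 2 libraries were not searched for a library far from the others.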

How the results depend on the processing

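Libraries number 2 a group, which limits every comparison within a line. With scaling by library totals, 2 genes were called higher across wild-type lines and the difference of responses had 3 higher. That scaling turned the sign in wild-type cells for ORC3 (-0.30), MCM2 (-0.28), MCM3 (-0.25), MCM4 (-0.10), MCM5 (-0.09), MCM6 (-0.15), CDC45 (-0.06), GINS2 (-0.15), GINS4 (-0.19), POLD1 (-0.11), RFC2 (-0.12) and E2F1 (-0.52), and in the difference for MCM4 (-0.03) and RFC2 (-0.11). It called 6 genes in G579S cells across lines, 2 in A375 G579S and 2 between MDA-MB-231 genotypes. DESeq2 called 13 genes in G579S cells across lines, 4 in A375 G579S, 5 in Cal51 G579S, 2 in MDA-MB-231 G579S, 23 between Cal51 genotypes and 4 between MDA-MB-231 genotypes, and RFC5 was at 0.09 with DESeq2 and with its size factors in edgeR. The replicate block left 0 calls in G579S cells across lines, 0 in Cal51 G579S, 5 between A375 genotypes and 0 between MDA-MB-231 genotypes, and MCM3, MCM5 and MCM6 no longer passed in wild-type cells. The mean of the 4 line contrasts gave 14 calls in G579S cells, and leaving out the 4 DLD1 libraries gave 0. Length-scaled TPM left 0 calls in Cal51 G579S and no filter left 0 between MDA-MB-231 genotypes. E2F1 was at -0.02 when DLD1 wild-type was left out with the first MDA-MB-231 OTS964 library, an alternative chosen after seeing the data. Transcript usage had 5 calls by the gene-level F test and 0 when DLD1 wild-type was left out. Leaving out 1 library at a time gave 36 to 40 calls in wild-type cells, 32 to 37 for the difference, 1 to 9 in G579S cells, 0 to 9 in Cal51 G579S, 1 to 3 between A375, 7 to 11 between Cal51 and 0 to 0 between MDA-MB-231 genotypes, and 1 to 2 for transcript usage. RFC5 then ranged from -0.04 to 0.02 and E2F1 from -0.06 to 0.12. The cause of these changes was not tested.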
